A study of Homo sapiens with 5 samples.

Results

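REST, the repressor element 1 silencing transcription factor, and 9 genes of its corepressor machinery were followed in RNA-seq libraries of 501Mel melanoma cells and Hermes 3A melanocytes in which BPTF had been silenced. The 10 genes are REST, RCOR1, RCOR2, RCOR3, SIN3A, HDAC1, HDAC2, KDM1A, EHMT2 and CTBP1, of 31029 genes listed for both cell lines. They were chosen by symbol for their place in the REST machinery, with their CPM, the counts scaled to an equal library total, in these same 5 libraries already in view. Their values are therefore a description. Threshold calls of the 10 genes in the fit over all genes are given as part of it, and are no test of them. All 10 were among the 17975 genes that passed the filter on low counts.

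Both groups carried a lentiviral shRNA against BPTF (shBPTF), the large subunit of the NURF chromatin remodelling complex, and infected cells were kept in puromycin (3 µg/ml) for 5 days. The first group is 501Mel shBPTF (n = 2), a MITF-expressing human melanoma line grown in RPMI with foetal calf serum. The second is Hermes 3A shBPTF (n = 3), an immortalised human melanocyte line whose medium also held TPA, cholera toxin, stem cell factor and endothelin-1. Each group is 1 cell line, and no shControl library was analysed here, so that an effect of BPTF silencing cannot be measured. The only comparison is 501Mel against Hermes 3A, in which cell line, medium and the gene annotation used for counting cannot be told apart. The study used 2 shBPTF constructs, and the labels do not say which was sequenced in which library. They do not say either whether replicates were separate infections, so that SDs and p-values measure the spread between these libraries, which may be technical.

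REST is a zinc finger repressor that binds the RE1 element in and near genes of neurons and neuroendocrine cells and keeps them low elsewhere. It recruits corepressors through both ends of the protein. The N-terminal domain binds SIN3A, a scaffold that carries the histone deacetylases HDAC1 and HDAC2. The C-terminal domain binds RCOR1 (CoREST), which brings the same deacetylases, the histone H3K4 demethylase KDM1A (LSD1), the H3K9 methyltransferase EHMT2 (G9a) and the corepressor CTBP1. RCOR2 and RCOR3 are paralogues of RCOR1. All the cofactors also serve other transcription factors.

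Sequences that match the RE1 motif near start sites of known REST targets are printed below. They are matches of letters, and binding of REST to them was not measured here. The search used TTCAGCACC, any 2 bases and GGACAGCGC, on both strands, with up to 3 mismatches, in RefSeq promoter windows of GRCh38.p14 from 250 bases before to 50 after each start. Capitals mark letters that match the motif, and each site is written 5′ to 3′ on its own strand.
GRIA2, chr4:157220389-157220408, minus strand: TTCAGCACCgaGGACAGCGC
VGF, chr7:101165559-101165578, plus strand: TTCAGCACgctGGACAGCGC
SYN1, chrX:47620071-47620090, minus strand: TTCAGCACCgcGGACAGtGC
CELSR3, chr3:48663015-48663034, minus strand: TTCAGCACCagGagCAaCGC
GRIA2, a subunit of AMPA glutamate receptors, matched with 0 mismatches. VGF, a secreted neuropeptide precursor, and SYN1, a synaptic vesicle protein, had 1 each, and CELSR3, a cadherin of axon guidance, had 3. Such a match lay in 4 of the 28 windows of the target genes listed further on (14.3%), against 45 of all 35116 windows (0.128%). It also lay, with 3 mismatches, in 1 of the 43 windows of the corepressor partners counted further on (2.33%). The windows cover a small part of the sequence near a gene, and many RE1 sites lie outside them.

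None of the 14 windows available for 9 of the 10 genes held the motif at this tolerance. The nearest was 5 mismatches away, in a window of REST itself. RCOR2 was not in the promoter table. The 14 windows were rich in G and C, between 59.7% and 80.7% with a median of 69.7%, where the median of all windows was 58.7%. They held between 8 and 53 CpG dinucleotides with a median of 27, against 14 over all windows.

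The 5 libraries held 30073071 to 43032311 counts, and 3 counts corresponded to 0.0697 to 0.0998 CPM. Hermes 3A replicate 1 stood apart: chi-square per gene was 94.7 and 99.7 against the other Hermes 3A libraries, which gave 21.3 between them, while the 501Mel pair gave 74.1. The labelled cell types were checked against markers. The 7 melanocyte markers summed to 12718 and 19661 CPM in 501Mel and to 31651 to 32728 CPM in Hermes 3A, where DCT, an enzyme of melanin synthesis, was low (7.37 to 13.1 CPM against 1068 and 1300 CPM). Of the 5 keratinocyte markers only 3 were listed in the counts, without KRT5 and KRT1. These 3 summed to 32.7 to 48.0 CPM, nearly all KRT10. The fibroblast markers summed to 17.7 and 4.23 CPM in 501Mel and to 78.3, 183 and 190 CPM in Hermes 3A, nearly all COL1A2 there, while DCN stayed at or under 0.163 CPM in all 5 libraries. Of the 4 fibroblast markers that passed the filter, 1 was lower in 501Mel by 10.7 on the log2 scale and passed an adjusted p of 0.05. The other 3 were higher in 501Mel, by up to 2.35, and did not pass. The part of other cells in the results was not tested. BPTF, the targeted gene, had 65.8 and 57.8 CPM in 501Mel and 45.8, 51.6 and 54.1 CPM in Hermes 3A. Its log2 difference was 0.23 ± 0.139 (SE, edgeR quasi-likelihood test, adjusted p = 0.208), and without controls these values do not check the knockdown.

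In the fit over all genes the lines differed widely, which sets the background for every count that follows. Of 17975 genes, 8669 (48.2%) passed an adjusted p of 0.05, with 24.2% higher and 24.0% lower in 501Mel, and the CPM ranges of the lines did not overlap for 69.8%. The median log2 difference over all genes was 0.02 under the main scaling and 0.09 with library totals only. Of the 10 REST machinery genes, 5 passed the same threshold, 4 higher and 1 lower in 501Mel, and the ranges of 6 were apart. Their median log2 difference was 0.45. These counts describe genes chosen with their values in view, and are no evidence about them as a group. Bulk counts do not tell a larger share of expressing cells from more RNA per cell.

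REST itself was at nearly the same level in both lines. REST (ENSG00000084093, chr4:56907876-56966678, plus strand) had 1566 and 1081 counts in the 501Mel libraries and 1304, 1358 and 1046 in the Hermes 3A libraries. This was 36.4 and 28.6 CPM in 501Mel and 31.3, 33.2 and 34.8 CPM in Hermes 3A. The 3 Hermes 3A values lay between those of the 501Mel pair. The means were 32.5 ± 5.54 CPM (SD, n = 2) and 33.1 ± 1.74 CPM (SD, n = 3), and the log2 difference, 501Mel minus Hermes 3A, was -0.09 ± 0.167 (SE). Without either 501Mel library in turn it was -0.26 or 0.05, so that the sign is not fixed. Coordinates here and for the genes that follow are those of GENCODE 29 on GRCh38, while the authors aligned to hg19.

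**Figure D1:**
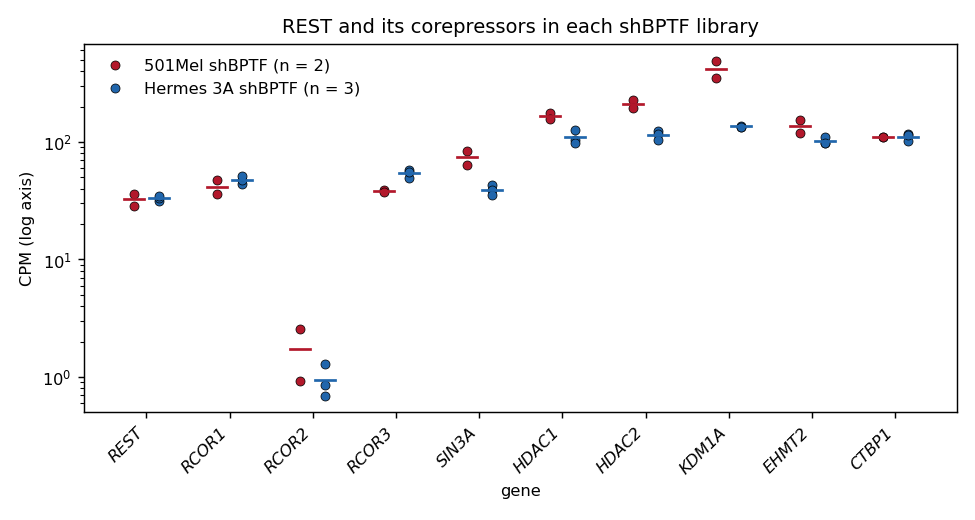
CPM of REST and 9 corepressor genes (log axis) in each 501Mel shBPTF (red) and Hermes 3A shBPTF (blue) library, with a bar at the mean of each line. REST, RCOR1 and CTBP1 overlap between the lines, KDM1A, HDAC1, HDAC2, SIN3A and EHMT2 are higher in both 501Mel libraries, and RCOR3 is lower.

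SIN3A was higher in both 501Mel libraries. SIN3A (ENSG00000169375, chr15:75369379-75455842, minus strand) had 3629 and 2428 counts, or 84.3 and 64.1 CPM, in 501Mel. In Hermes 3A it had 1778, 1605 and 1062 counts, or 42.7, 39.3 and 35.3 CPM. Each 501Mel library was above every Hermes 3A library, with means of 74.2 ± 14.3 and 39.1 ± 3.69 CPM, a ratio of 1.90 and a log2 difference of 0.86 ± 0.175. SIN3A shares 206 exonic bases (1.65%) with AC068338.2 on the other strand.

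Both class I deacetylases were also higher in 501Mel. HDAC1 (ENSG00000116478, chr1:32292086-32333635, plus strand) had 175 and 157 CPM in 501Mel (7538 and 5953 counts) and 126, 104 and 98.7 CPM in Hermes 3A (5247, 4262 and 2969 counts). HDAC2 (ENSG00000196591, chr6:113933028-114011308, minus strand) had 226 and 196 CPM in 501Mel (9704 and 7420 counts) and 123, 116 and 104 CPM in Hermes 3A (5115, 4748 and 3124 counts). The lines did not overlap for either gene. HDAC1 differed by 0.53 ± 0.167 on the log2 scale, a ratio of means of 1.52. HDAC2 differed by 0.82 ± 0.148, a ratio of 1.84. HDAC1 has annotated processed pseudogenes, and how reads with several matches were counted is not given in the sources used here, so that its counts carry that uncertainty.

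RCOR1 and RCOR3, the more abundant CoREST paralogues, were not higher in 501Mel. RCOR1 (ENSG00000089902, chr14:102592661-102730576, plus strand) had 47.2 and 35.8 CPM in 501Mel (2029 and 1356 counts) and 44.2, 47.8 and 51.3 CPM in Hermes 3A (1841, 1954 and 1543 counts). The lines overlapped, at 41.5 ± 8.01 and 47.8 ± 3.56 CPM, with a log2 difference of -0.27 ± 0.166. RCOR3 (ENSG00000117625, chr1:211258377-211316385, plus strand) had 39.3 and 37.7 CPM in 501Mel (1693 and 1429 counts) and 49.0, 57.8 and 56.0 CPM in Hermes 3A (2043, 2363 and 1684 counts). RCOR3 was the one gene of the 10 that was lower in both 501Mel libraries than in every Hermes 3A library, by -0.55 ± 0.138 on the log2 scale.

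RCOR2 was the least abundant of the 10 genes. RCOR2 (ENSG00000167771, chr11:63911221-63916844, minus strand) had 110 and 35 counts in 501Mel, or 2.56 and 0.925 CPM. In Hermes 3A it had 29, 35 and 39 counts, or 0.696, 0.856 and 1.30 CPM. One 501Mel library lay above and the other within the Hermes 3A range. Its log2 difference of 0.82 ± 0.539 had the widest error of the 10, and became -0.08 without 501Mel replicate 1 and 1.35 without 501Mel replicate 2.

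KDM1A, the demethylase that RCOR1 activates on nucleosomes, showed the widest gap of the 10. KDM1A (ENSG00000004487, chr1:23019443-23083689, plus strand) had 15066 and 18566 counts in 501Mel, or 350.1 and 490.4 CPM. The Hermes 3A libraries had 5609, 5579 and 4064 counts, or 135, 137 and 135 CPM. The Hermes 3A values were nearly equal, and the lower 501Mel value was still far above them. The means were 420.3 ± 99.2 and 135 ± 0.967 CPM, a ratio of 3.10 and a log2 difference of 1.57 ± 0.177. In the whole fit 26.9% of genes differed by more than KDM1A in either direction, so that the gap is wide for these 10 genes and not for the transcriptome. The value stayed between 1.28 and 1.81 over all alternatives tried, and these ends are the fits that keep 1 of the 501Mel libraries.

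EHMT2 and CTBP1, the remaining partners, differed little. EHMT2 (ENSG00000204371, chr6:31879759-31897687, minus strand) had 120.1 and 153 CPM in 501Mel (5169 and 5796 counts) and 97.3, 109.5 and 97.2 CPM in Hermes 3A (4054, 4476 and 2922 counts). The ranges were apart, and the log2 difference of 0.37 ± 0.153 did not pass the adjusted threshold. CTBP1 (ENSG00000159692, chr4:1211448-1249953, minus strand) had 110.0 and 111 CPM in 501Mel (4735 and 4187 counts) and 101, 116 and 115 CPM in Hermes 3A (4224, 4748 and 3454 counts). Both 501Mel values lay inside the Hermes 3A range, and the log2 difference was -0.07 ± 0.125. Antisense genes share 592 exonic bases with EHMT2 (EHMT2-AS1, 8.12%) and 810 and 305 with CTBP1 (CTBP1-AS, 9.69%, and CTBP1-DT, 3.65%), and the sources used here do not say that counting used strand.

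**Figure D2:**
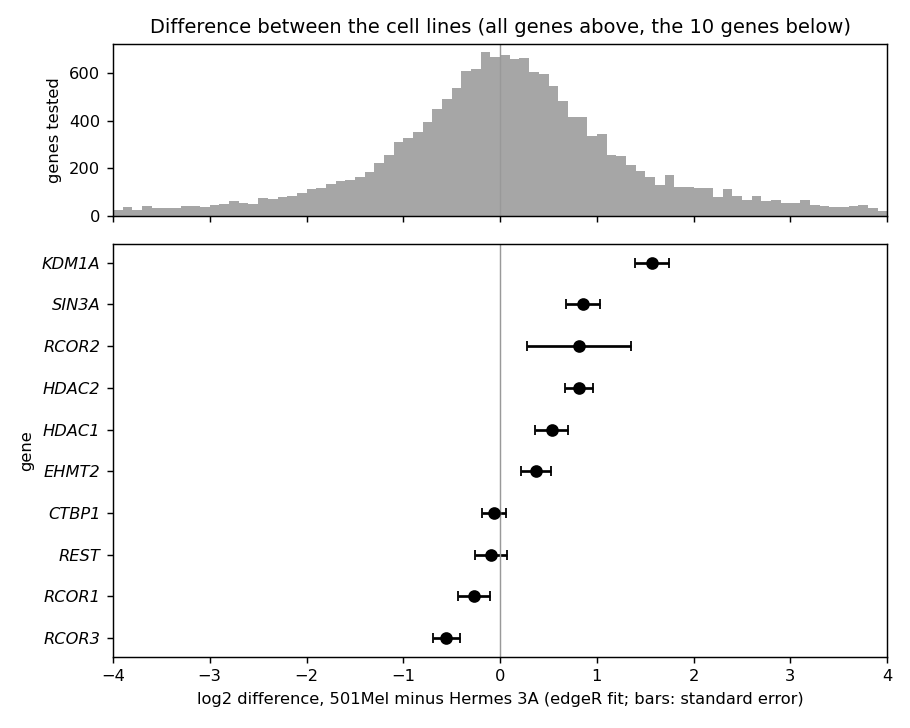
Log2 difference between the lines, 501Mel minus Hermes 3A (edgeR fit): above, the number of all tested genes in bins of 0.1 between -4 and 4, and below, REST and 9 corepressor genes with standard errors. KDM1A lies at 1.57 and RCOR3 at -0.55, and REST, CTBP1 and RCOR1 lie closer to 0 than most genes, since 93.1%, 94.9% and 80.2% of tested genes differ by more.

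The number of these 10 genes past the threshold depended on the fit. It was 3 without 501Mel replicate 2, 4 or 5 without each other library, 6 with library totals only and 3 with a replicate block. RCOR3 was not called without either 501Mel library or with the block. The number was 1, KDM1A, where an absolute log2 difference of 1 was also asked for, a rule that 6157 of all 17975 genes passed.

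Levels of different genes were compared as CPM per kb of exon, and the order depends on the length taken for each gene. With the union of annotated exons, KDM1A led in 501Mel at 77.3 ± 18.2 CPM per kb, followed by HDAC1 at 41.9 ± 3.20. In Hermes 3A, HDAC1 at 27.7 ± 3.63 and KDM1A at 24.9 ± 0.178 overlapped. Next came EHMT2 at 18.7 ± 3.20 in 501Mel and 13.9 ± 0.973 in Hermes 3A. CTBP1 stood at 13.2 ± 0.0480 in 501Mel, overlapping HDAC2 at 13.6 ± 1.35, and at 13.3 ± 0.978 in Hermes 3A, overlapping EHMT2.

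REST was in the lower part of this order. It had 4.07 ± 0.694 CPM per kb in 501Mel, overlapping RCOR3 at 4.24 ± 0.124, and 4.15 ± 0.218 in Hermes 3A, between RCOR3 at 5.97 ± 0.509 and SIN3A at 3.14 ± 0.296 without overlap. Under the 3 lengths tried, the union of exons, the median transcript and the median basic coding transcript, REST took places 6 to 9 of 10 in both lines. RCOR2 was in place 10 each time, at 0.636 ± 0.421 and 0.347 ± 0.114 CPM per kb of union exon. KDM1A took places 1 to 3 in 501Mel and 2 to 7 in Hermes 3A.

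Ratios within a library do not depend on its depth. The libraries were treated with a nuclease that lowers abundant cDNAs, so that these ratios, and the levels per kb above, are those after that treatment. Per kb of union exon, KDM1A was 14.1 and 25.2 times REST in the 501Mel libraries and 6.31, 6.03 and 5.70 times in the Hermes 3A libraries. SIN3A was 1.49 and 1.44 times REST in 501Mel and 0.874, 0.758 and 0.651 times in Hermes 3A. HDAC1 was 9.70 and 11.1 times REST in 501Mel and 8.11, 6.32 and 5.72 times in Hermes 3A. All of these ratios were higher in both 501Mel libraries than in every Hermes 3A library. Another gene length rescales each ratio by the same factor in all 5 libraries and leaves that order as it is.

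**Figure D3:**
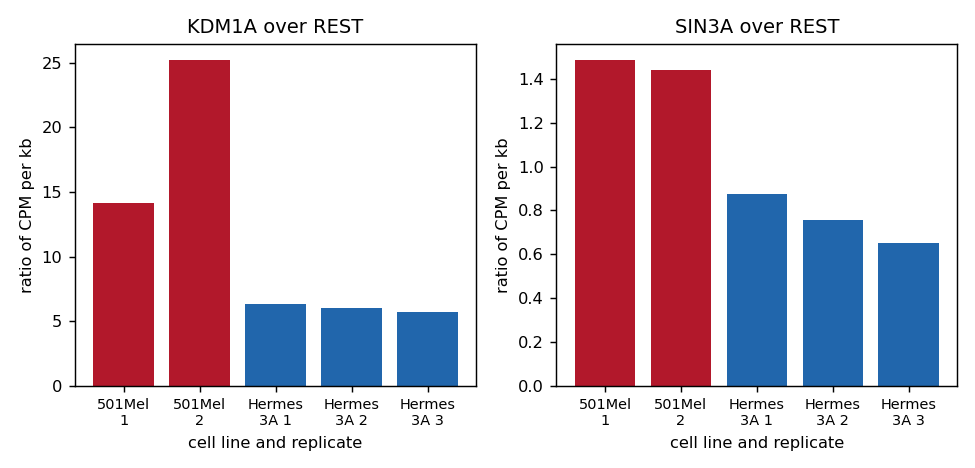
Ratio of KDM1A to REST (left) and of SIN3A to REST (right), in CPM per kb of union exon, 1 bar per library, with 501Mel in red and Hermes 3A in blue. KDM1A over REST is 14.1 and 25.2 in 501Mel against 5.70 to 6.31 in Hermes 3A, and SIN3A over REST is 1.49 and 1.44 against 0.651 to 0.874.

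Within the CoREST paralogues, RCOR1 made up 59.1% and 56.3% of the summed level per kb in 501Mel and 55.8%, 53.6% and 55.5% in Hermes 3A. RCOR3 made up 33.6% and 40.4% in 501Mel and 42.2%, 44.2% and 41.3% in Hermes 3A. RCOR2 held between 1.99% and 7.26%. RCOR1 thus led RCOR3 in all 5 libraries with this length, and the RCOR3 share was lower in both 501Mel libraries. With the median basic coding transcript as length the order turned, with RCOR3 at 16.9 and RCOR1 at 7.21 CPM per kb in 501Mel and at 23.8 and 8.30 in Hermes 3A. HDAC1 was 75.2% and 75.8% of the deacetylase pair in 501Mel and 80.0%, 77.8% and 78.8% in Hermes 3A. With the median transcript length these shares were 37.0% and 37.8% against 43.7%, 40.5% and 41.9%. Which deacetylase is the more abundant is therefore not settled by these counts. With any one length, the HDAC1 share was lower in both 501Mel libraries than in every Hermes 3A library, an order that the length cannot change.

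The 5 genes whose profile over the 5 libraries lay closest to that of REST were DPP8, SLC39A9, GLRX5, LRRC49 and SELENOH. Likeness was the root mean square distance between centred log2(CPM + 1) values, over 13904 genes with a mean of at least 1 CPM. Their distances were 0.0196, 0.0199, 0.0215, 0.0297 and 0.0326. Among the corepressor genes, RCOR1 was nearest to REST at 0.0888 (rank 147), followed by CTBP1 at 0.117 (rank 411). KDM1A was the farthest at 0.847 (rank 11602). The points share only 5 libraries of 2 lines, so that these ranks are a description of similar CPM in both.

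Genes around each locus were compared as well. Within 1 Mb of KDM1A, 25 other genes were tested, with a median log2 difference of 0.17, and 3 of them reached the value of KDM1A or more. Around SIN3A the median was -0.01 over 38 genes, 11 of which were at or above SIN3A. HDAC1 lay among 43 genes with a median of 0.23, and 14 were at or above it. Around RCOR3, the gene that was lower, the median of 15 genes was 0.24.

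Partners of these complexes were counted in a list of 26 genes, all tested. Of them, 6 were higher and 6 lower in 501Mel (12 of 26, 46.2%, beside 48.2% of all genes), and 14 did not pass. The median log2 difference was -0.10 and the values ran from -1.33 to 1.61.

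The histone-binding chaperones of the SIN3A and other deacetylase complexes were among the higher genes. RBBP7 had 317 and 360.5 CPM in 501Mel and 120.2, 108 and 89.2 CPM in Hermes 3A. It was higher by 1.61 ± 0.178 on the log2 scale (edgeR quasi-likelihood test, Benjamini-Hochberg adjusted p = 0.000508). RBBP4, which is also a subunit of NURF with BPTF, had 158 and 142 CPM in 501Mel and 61.5, 77.7 and 79.2 CPM in Hermes 3A. It was higher by 0.99 ± 0.143 (edgeR adjusted p = 0.00155). RBBP4 shares 18.0% of its exonic bases with SYNC on the other strand and has processed pseudogenes.

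SINHCAF, a SIN3A complex subunit, had 164 and 103 CPM in 501Mel against 52.7, 64.5 and 67.8 CPM in Hermes 3A (log2 difference 1.05 ± 0.206, edgeR adjusted p = 0.00535). ZMYM3, a zinc finger partner of the CoREST complex, had 132 and 153 CPM against 77.3, 84.0 and 69.2 CPM (0.83 ± 0.147, edgeR adjusted p = 0.0035). CDYL was also higher.

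HMG20B, the HMG-box subunit of the CoREST complex, moved the other way and was the lowest of the list. It had 298 and 239 CPM in 501Mel and 676, 638 and 618 CPM in Hermes 3A. Its log2 difference was -1.33 ± 0.172 (edgeR adjusted p = 0.000966). Each 501Mel library was below every Hermes 3A library. HMG20B shares 9.57% of its exonic bases with MFSD12 on the other strand.

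PHF21A, the subunit that reads unmethylated H3K4 in the CoREST complex, had 16.1 and 18.6 CPM in 501Mel and 24.0, 35.3 and 32.0 CPM in Hermes 3A (-0.87 ± 0.206, edgeR adjusted p = 0.0117). It no longer passed without 501Mel replicate 1, at -0.75. SAP30L, a SIN3A complex subunit, had 8.69 and 10.5 CPM against 19.95, 19.6 and 22.6 CPM (-1.17 ± 0.212, edgeR adjusted p = 0.00381). BRMS1, another, had 71.3 and 72.0 CPM against 124, 117 and 111 CPM (-0.78 ± 0.138, edgeR adjusted p = 0.00356). SAP30 was also lower. The paralogues SIN3B, EHMT1 and CTBP2 did not pass, with log2 differences of -0.11, -0.20 and -0.14.

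**Figure D4:**
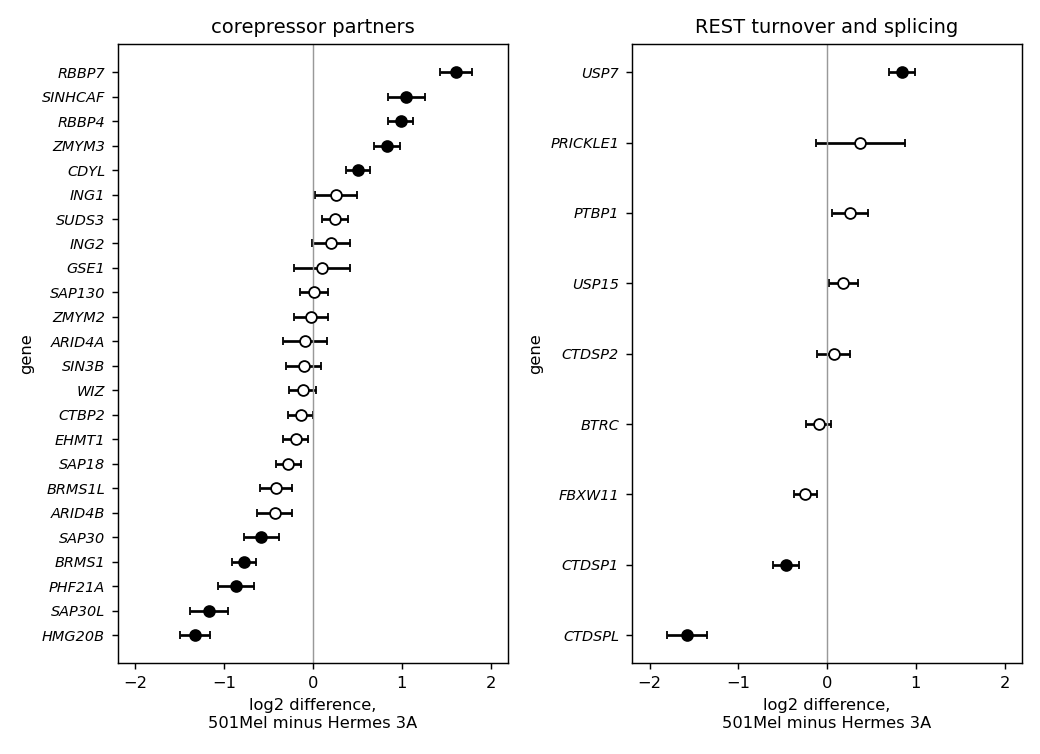
Log2 difference, 501Mel minus Hermes 3A, with standard errors, for 24 of the corepressor partners (left) and 9 genes of REST turnover and splicing (right). Filled points pass an adjusted p of 0.05 in the edgeR fit. RBBP7 at 1.61 and HMG20B at -1.33 are the ends of the left panel, and USP7 at 0.84 and CTDSPL at -1.58 those of the right.

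REST protein is controlled by ubiquitin ligases, deubiquitinases and phosphatases, and its transcript by splicing. Of 10 such genes 9 were tested, and 3 passed (33.3%), 1 higher and 2 lower in 501Mel. USP7, a deubiquitinase that stabilises REST, had 228 and 194 CPM in 501Mel and 121, 114 and 102 CPM in Hermes 3A. It was higher by 0.84 ± 0.151 (edgeR adjusted p = 0.00368). CTDSPL, a small CTD phosphatase, had 19.5 and 13.1 CPM against 38.2, 49.9 and 52.1 CPM (-1.58 ± 0.226, edgeR adjusted p = 0.00149). Its paralogue CTDSP1, which dephosphorylates REST, had 65.6 and 70.0 CPM against 75.3, 97.2 and 96.2 CPM (-0.46 ± 0.148, edgeR adjusted p = 0.0367). CTDSP1 lost its call under 7 alternatives: without either 501Mel library, without Hermes 3A replicate 2 or 3, with library totals only, with at least 10 counts in every library and with a replicate block. Its values there ran from -0.54 to -0.39, and it shares 9.90% of its exonic bases with AC021016.3.

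BTRC and FBXW11, the F-box proteins that mark REST for degradation, had log2 differences of -0.10 and -0.25 and did not pass. CTDSP2, USP15, PTBP1 and PRICKLE1 did not pass either. SRRM4, the neural splicing factor that diverts REST transcripts to a truncated form, had 0 and 2 counts in 501Mel and 1, 3 and 0 in Hermes 3A. No library was above 3 counts, so that SRRM4 was at or under the limit of detection in both lines.

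Known REST targets were taken as 30 neuronal and neuroendocrine genes. Of these 29 are listed for at least 1 line and 24 were tested, and 12 of the 24 passed, 5 higher and 7 lower in 501Mel. The split moved with the fit. Without Hermes 3A replicate 1, 2 or 3 it was 3 higher and 8 lower, 3 and 7, or 5 and 5. It was 2 and 6 where each library had to hold at least 10 counts, and 6 and 10 with no filter. DESeq2 and a replicate block gave 5 and 8, and RLE scaling and library totals only left it at 5 and 7. The median log2 difference was 0.13, and the values ran from -7.49 to 6.83. The higher genes leaned on 501Mel replicate 1. Without it CACNA1H, SCN2A, CHRNB2 and SCG3, described below, shrank to 6.29, 2.17, 1.57 and 0.76. Of the lower genes described below, TUBB3 also shrank, to -3.53, while L1CAM, STMN2 and BDNF widened. The targets differed in both directions, at a rate close to the 48.2% of all genes. REST RNA was at nearly the same CPM in both lines, and any part of REST in the target levels was not tested.

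The 4 higher genes with the largest differences and no overlap were CACNA1H, SCN2A, CHRNB2 and SCG3. CACNA1H, a T-type calcium channel subunit, had 32.6 and 16.8 CPM in 501Mel and 0.0480, 0.343 and 0.233 CPM in Hermes 3A (6.83 ± 0.605, edgeR adjusted p = 0.000212). CHRNB2, a nicotinic receptor subunit, had 97.0 and 43.0 CPM against 10.1, 12.6 and 19.4 CPM (2.26 ± 0.377, edgeR adjusted p = 0.00279), and 1.57 without 501Mel replicate 1. SCN2A, a sodium channel subunit, was low throughout, with 2.90 and 1.16 CPM against 0.144, 0.245 and 0.366 CPM (2.97 ± 0.583, edgeR adjusted p = 0.00539). SCG3, a secretogranin of dense-core vesicles, had 60.6 and 18.8 CPM against 4.25, 12.7 and 15.6 CPM (1.82 ± 0.592, edgeR adjusted p = 0.038). The lower 501Mel value of SCG3 was close to the highest of Hermes 3A. Without 501Mel replicate 1, SCN2A and SCG3 no longer passed, at 2.17 and 0.76, and SCG3 also did not pass without Hermes 3A replicate 1 or 2, at 1.43 and 1.88. Without 501Mel replicate 2 SCG3 was at 2.41. GRIN1 was the fifth.

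The 4 lower genes chosen in the same way were L1CAM, STMN2, BDNF and TUBB3. L1CAM, a neural adhesion molecule, had 6.81 and 0.925 CPM in 501Mel and 362, 788 and 873 CPM in Hermes 3A (-7.49 ± 0.927, edgeR adjusted p = 0.000821). Without 501Mel replicate 1 or 2 its value was -9.54 or -6.71. TUBB3, the neuronal beta-tubulin, had 2.35 and 2.96 CPM against 20.8, 40.7 and 38.5 CPM (-3.70 ± 0.347, edgeR adjusted p = 0.000265), and shares 35.8% of its exonic bases with AC092143.1 on the same strand. STMN2, a stathmin of growth cones, had 14 and 0 counts, or 0.325 and 0 CPM, against 6.31, 9.76 and 7.18 CPM (-5.56 ± 0.944, edgeR adjusted p = 0.0030). It was -4.64 without 501Mel replicate 2, and -11.19 without replicate 1, where the remaining 501Mel library is at 0 and the fitted value is no bound. BDNF, a neurotrophin, had 1.02 and 0.634 CPM against 54.6, 10.4 and 8.35 CPM (-4.98 ± 1.04, edgeR adjusted p = 0.00682), and the highest value was that of Hermes 3A replicate 1, without which the difference was -3.55. BDNF shares 9.06% of its exonic bases with BDNF-AS. VGF, CELSR3 and HCN2 were the other 3 lower genes.

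Of the 4 target genes with an RE1 match, VGF and CELSR3 were lower in 501Mel, SYN1 did not pass and GRIA2 was not tested. VGF had 308 and 232 CPM in 501Mel and 1221, 856 and 838 CPM in Hermes 3A (-1.92 ± 0.264, edgeR adjusted p = 0.00125). CELSR3 had 44.1 and 33.0 CPM against 46.7, 99.6 and 133 CPM (-1.32 ± 0.391, edgeR adjusted p = 0.0269). SYN1 overlapped, with 4.74 and 2.22 CPM against 0.696, 3.43 and 3.79 CPM. GRIA2, whose site matched with 0 mismatches, had 17 and 1 counts in 501Mel and 0, 0 and 2 in Hermes 3A, under the filter. VGF was thus abundant in both lines, and GRIA2 near the limit of detection.

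**Figure D5:**
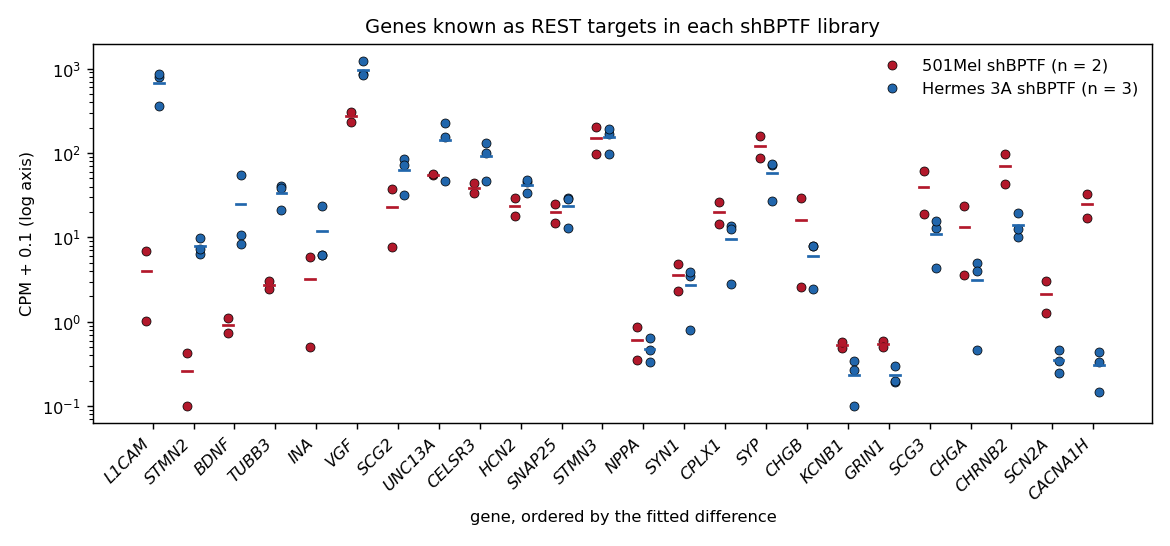
CPM + 0.1 (log axis) of the 24 tested genes known as REST targets in each 501Mel shBPTF (red) and Hermes 3A shBPTF (blue) library, with a bar at the mean of each line, ordered by the fitted difference. L1CAM at the left is lower in 501Mel and CACNA1H at the right is higher, and several genes between them spread widely within a line.

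The secretory granule genes CHGA and CHGB spread widely within the lines, CHGA in both, while SCG3 and VGF passed the threshold as given above. CHGA, chromogranin A, had 23.1 and 3.46 CPM in 501Mel and 0.360, 4.85 and 3.89 CPM in Hermes 3A. CHGB had 29.05 and 2.46 CPM against 2.33, 7.90 and 7.75 CPM. Neither passed the threshold, and both lines overlapped. GRIA2, CALB1 and SLC18A3 were under the filter, SYT4 is listed for 501Mel only, and NEFL was not analysed here.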

How the data were processed

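Total RNA was depleted of rRNA, and libraries were treated with duplex-specific nuclease, which lowers abundant cDNAs and so compresses levels, before sequencing on a HiSeq2500. The authors deposited raw read counts per Ensembl gene, as whole numbers, for each library. The submitters' processing notes name CASAVA 1.8, TopHat 1.4.1, Bowtie 0.12.7 and hg19. The counting program and annotation release are not given in the sources used here. The tables list 37259 genes for 501Mel and 34033 for Hermes 3A, 31029 of them in both, and 1617 Hermes 3A identifiers lie above the highest of 501Mel. The genes in both held at least 99.3% of the counts of each library and were the ones analysed.

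Libraries were grouped by the cell line in their titles. CPM were computed from the deposited counts and the library totals, 43032311 and 37856675 in 501Mel and 41653084, 40865034 and 30073071 in Hermes 3A. The limit of 3 counts covers counting error only. All 5 libraries entered 1 fit (edgeR 4.0.16 in R 4.3.3, filterByExpr, TMM, glmQLFit and glmQLFTest), with Benjamini-Hochberg adjustment over all 17975 genes tested and a threshold of 0.05. Fold changes are log2, 501Mel minus Hermes 3A, with SE. The SE was derived from the test, as the absolute log2 difference over the square root of the F statistic. The procedure was first run on simulated counts, with the same dispersion for all genes and a small part of them changed. Far more genes differed in these data, so that this run does not measure the error rate of the calls here. Alternatives were RLE scaling, library totals only, DESeq2 1.42.0, other filters, a stricter call, a replicate block and each library left out.

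The 10 genes and all lists were chosen with earlier results of these data known. Named in the text were the 10 genes, BPTF, the 5 genes most like REST and, per pathway list, up to 4 called genes in each direction with the largest log2 difference and no overlap between the lines. SYN1, VGF, CELSR3, GRIA2, CHGA, CHGB and the genes named only with their direction or as not passing fall outside this rule and were chosen after their values were seen. Some members of the lists are counted but not reported singly here. Gene names, exons and coordinates are those of GENCODE 29 (GRCh38), which named 29317 of the genes in both tables. Gene length was the union of exons. Promoter windows came from RefSeq (GRCh38.p14).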

Additional observations from a re-analysis of the deposited data

How the results depend on the processing

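With an absolute log2 difference of at least 1 also asked for, 6157 of all 17975 genes passed in place of 8669. Of the 26 corepressor partners 4 passed in place of 12, and of the 9 tested genes of REST turnover and splicing 1 in place of 3. Under every other alternative these counts, that of the targets and that of all genes stayed within 1.5 times the main one. Leaving out each library in turn gave 6059 to 9282 called genes in all, 9 to 12 partners, 2 to 4 turnover genes and 10 or 11 targets. The labels do not say whether same-numbered libraries of the 2 lines belong together. Deviations from the line means correlated at 0.0996 and 0.133 for same-numbered libraries, and at -0.133 to 0.0213 for the others. The deviations of the 2 501Mel libraries mirror each other, so that these values cannot decide on a pairing. With a replicate block 7461 genes were called, with 10 partners, 2 turnover genes, 13 targets and 3 of the 10 REST machinery genes in place of 5. DESeq2 called 8895 genes and library totals only 8823. The share of calls that were higher in 501Mel was 50.2%, and 48.0% to 53.9% under the other scalings and DESeq2. Without each library in turn, and under the other settings, the log2 differences of RCOR3, SIN3A, HDAC1, HDAC2, KDM1A, EHMT2 and RCOR1 kept their sign, and those of REST (-0.26 to 0.05), RCOR2 (-0.08 to 1.35) and CTBP1 (-0.12 to 0.00) did not. Of the 206 values of the other named pathway genes under alternatives, 194 kept their call and 12 lost it, and none changed sign. These values leave out the stricter call, which PHF21A, ZMYM3, BRMS1, RBBP4, USP7 and CTDSP1 do not pass, since their absolute log2 differences are under 1. They also leave out STMN2, SCN2A and CACNA1H where each library had to hold at least 10 counts, a filter that removed these genes. Levels per kb moved with the gene length used, for REST in 501Mel from 4.07 to 24.96 CPM per kb with the median transcript and 24.0 with the median basic coding transcript, the last of which was added after the data were seen. Depth limits the genes with under 40 counts in at least 1 library, among them RCOR2, SRRM4, GRIA2, STMN2, CACNA1H, SCN2A, L1CAM, BDNF, SYN1, CHGA and GRIN1.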
